A study of Rattus norvegicus with 2 samples.

Results

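The proteasome genes of rat liver were examined on 2 oligonucleotide arrays, 1 from a rat liver on a low-fat diet and 1 from a rat liver on a high-fat diet. Members were taken by symbol: every probe set with a single gene symbol that starts with Psm, a letter from a to g and a digit, without Psmb8 and Psmb9. This gave 44 probe sets for 41 genes, of 10411 genes with a single symbol on the array. The genes were 7 alpha and 7 beta subunits of the core, 5 ATPases, 9 non-ATPases, 3 chaperones of base assembly and 3 activators. The rest were the regulator Psmf1, 4 chaperones of core assembly, and Psmc3ip and Psme3ip1, which the symbol takes in but which are not proteasome subunits.

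Both rats were of the SD strain, labelled as 4 weeks old, and were fed for 9 weeks. Both foods were based on AIN93G, a purified rodent diet, and differed by label in fat. How much fat each food held, which sex the rats were and whether RNA was pooled are not stated in the labels. Since each diet had a single array, no difference has a replicate check or a p-value, and all values describe these 2 arrays. In whole liver, a change in cell types and a change in RNA per cell cannot be told apart.

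The 26S proteasome is the main protease of the cytosol and nucleus, and destroys proteins tagged with ubiquitin. Its 20S core is a barrel of alpha and beta rings, and only some beta subunits cut peptide bonds. The 19S regulatory particle caps the core. Its ATPases unfold the substrate and thread it in, while its non-ATPases bind ubiquitin, remove it and hold the particle together. Other caps, the activators of the PA28 and PA200 kinds, open the core without ubiquitin. When proteasome activity falls, the transcription factor encoded by Nfe2l1 raises most subunit genes together through antioxidant response elements.

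The 2 arrays were close in overall level. The deposited values are signal intensities on a linear scale, and their medians, 15.7 (low-fat) and 14 (high-fat), served as detection floors. A probe set counted as measured when the average of its 2 log2 signals reached that of the log2 floors, and all 44 member probe sets did. Log2 ratios are high-fat over low-fat, less the median of 7864 measured probe sets (-0.117), and "higher" or "lower" is their sign. All 7 hepatocyte markers were measured, with ratios of 0.03 to 0.27, and Alb, the albumin gene, had signals of 9119.2 and 9255.6. With loess 4 of these 7 were higher, and with quantile normalization 3. The signals of the hepatocyte list summed to 37003.2 and 36976.1. Of 7 stellate cell markers 4 were measured. Of these Vim, Lrat and Col3a1 were lower (-0.59 to -0.25). Col1a2 was divided, with 29.9 and 13.2 on its brighter probe set, the second under the floor, and 18.7 and 18.1 (0.07) on the other. The signals of the stellate list summed to 422.3 and 315.7. Of 8 macrophage markers 5 were measured, 4 higher and 1 lower (-0.21 to 0.50), with sums of 953.5 and 854. The lower marker, Clec4f, was also the brightest, at 469.5 and 375. Each sum takes the uncentred signals of all single-symbol probe sets of a list, measured or not. Of 6 endothelial markers 2 were measured (-0.39 and -0.03), with sums of 294.8 and 249.3, and no lymphocyte marker was measured. The part of cell composition in the proteasome values was not tested.

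No proteasome subunit differed by as much as 2-fold between the arrays. By measured ratio 1 of the 41 genes was past 2-fold, the non-subunit Psmc3ip, against 1.71% of 6012 measured genes (0.848% higher and 0.865% lower). Its high-fat signal was under the floor, however, and with such signals raised to the floor no member was past 2-fold, against 1.15% of measured genes. Differences within the family were small and mostly upward: 28 genes were higher on the high-fat array and 13 lower, and 50% of measured genes were higher. Their log2 ratios had a median of 0.10 and quartiles of -0.03 and 0.17, against a median of -0.0002 and quartiles of -0.20 and 0.18 over all measured genes. The sign counts moved with the scaling, while the place of the members relative to other genes moved little. Without centring 19 of 41 were higher against 33.2% of measured genes, and the median was -0.01 against -0.12 over all of them. Centred on the hybridization controls, 23 were higher against 41.8%, with medians of 0.05 and -0.06. With loess, 27 were higher against 49.8%, with medians of 0.10 and -0.002. Members above the median of all measured genes numbered 28 with centring, 27 with loess and 29 with quantile normalization. Subtracting a constant from every ratio cannot change this count, so it was also 28 without centring and on the hybridization controls.

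The share of members outside the spread of probe sets of like signal was near that of all genes. As an error scale, measured probe sets were split into 10 equal bins by signal, and the robust SD of the ratio within the bin of each gene was used. It is a spread across probe sets on 2 arrays, not between animals. It was 0.17 in the brightest bin and 0.49 in the dimmest. By it, 11 of 41 genes (26.8%) lay farther than 1 robust SD from 0, against 32.2% of measured genes. By measured ratio 2 lay beyond 2 robust SDs, Psma1 and Psmc3ip, against 7.83% of measured genes. With signals under the floor raised to it, Psmc3ip was at -1.69 robust SDs and Psma1 alone lay beyond 2, against 7.35%. The upper quartile of all measured genes was passed by 9 members (22.0%), and 2 members (4.88%) lay under the lower quartile. Of the 41 genes, 29 were in the brightest 3 bins. Of those 29, 22 were higher, with a median of 0.11, beside 1053 of 1902 measured genes in the same bins, with a median of 0.02. The 12 dimmer members were split, 6 higher and 6 lower, with a median of -0.01.

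**Figure D1:**
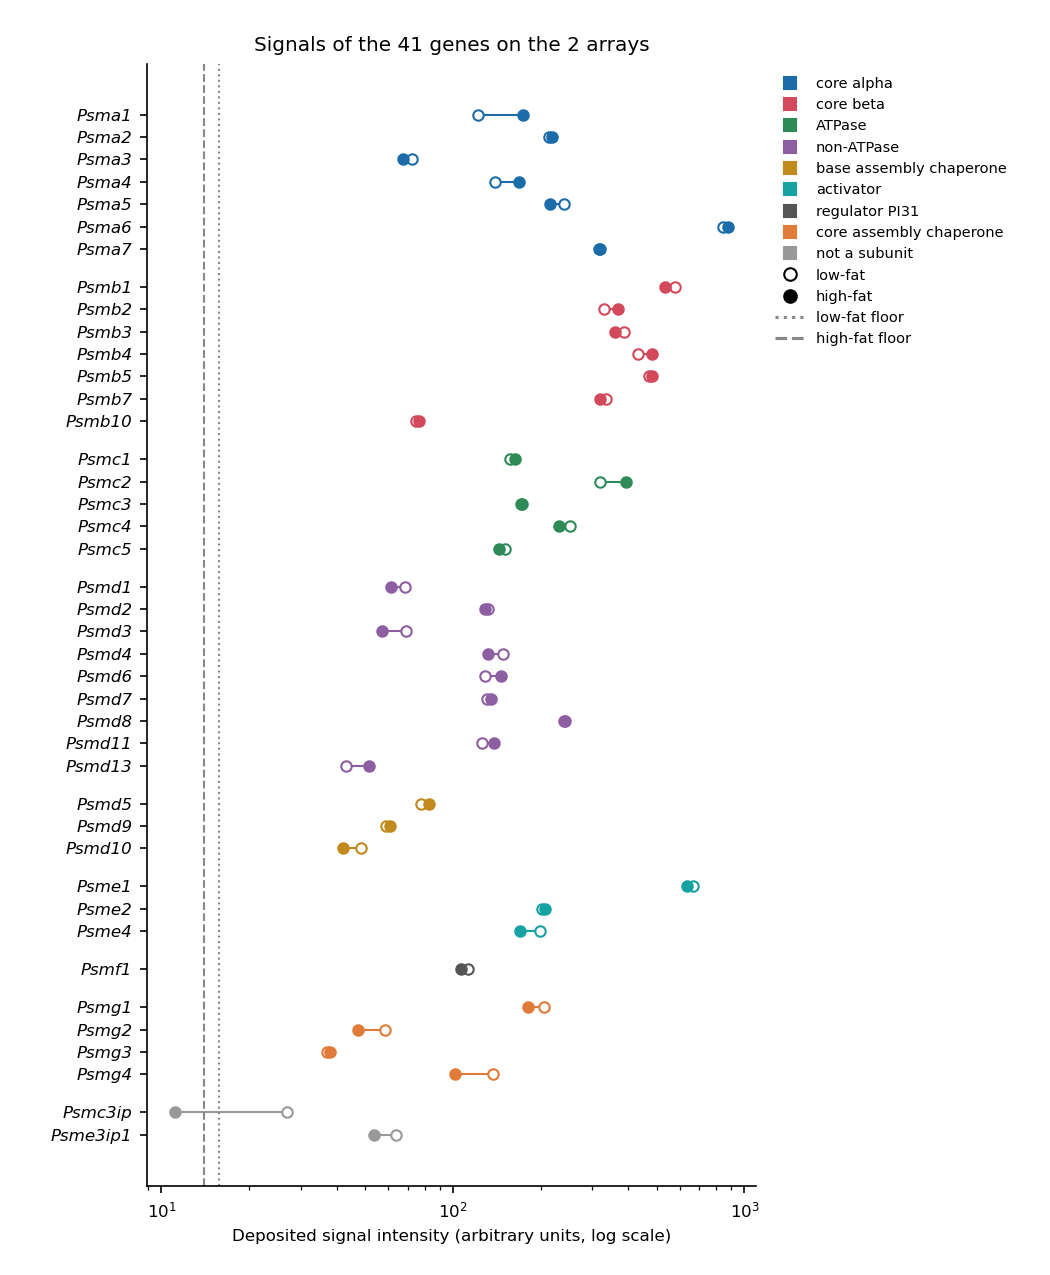
Deposited signal intensity (log axis) of each of the 41 genes on the low-fat (open) and high-fat (filled) array, at the brightest probe set, grouped by subunit class. Vertical lines mark the detection floors of 15.7 and 14. The longest lines are those of Psma1, Psmg4 and Psmc3ip, whose high-fat point lies below the floor.

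Upstream sequences are shown for 6 members: the 3 with the highest ratios (Psma1, Psmc2 and Psma4) and 3 whose promoters hold the antioxidant response core (Psmb2, Psmb5 and Psmd9). Each is the 200 bases before the annotated gene start, from RefSeq on build GRCr8, read 5′ to 3′ on the strand of the gene. Capitals mark TGACNNNGC (the antioxidant response core), CCAAT (the box bound by NF-Y) and CCGGAAG (an ETS core), on either strand. Coordinates are chr1:177887858-177888057 for Psma1 (minus strand), chr4:14162391-14162590 for Psmc2 (minus), chr8:64236320-64236519 for Psma4 (plus), chr5:144254858-144255057 for Psmb2 (plus), chr15:32047380-32047579 for Psmb5 (minus) and chr12:39018265-39018464 for Psmd9 (minus).
Psma1: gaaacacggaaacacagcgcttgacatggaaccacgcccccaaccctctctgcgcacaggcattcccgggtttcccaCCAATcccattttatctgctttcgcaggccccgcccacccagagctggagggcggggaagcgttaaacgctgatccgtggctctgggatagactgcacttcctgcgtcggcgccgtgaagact
Psmc2: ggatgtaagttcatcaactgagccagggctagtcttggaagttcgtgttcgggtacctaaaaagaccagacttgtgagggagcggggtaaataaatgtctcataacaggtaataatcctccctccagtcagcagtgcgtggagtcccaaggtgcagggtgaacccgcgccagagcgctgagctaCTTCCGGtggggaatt
Psma4: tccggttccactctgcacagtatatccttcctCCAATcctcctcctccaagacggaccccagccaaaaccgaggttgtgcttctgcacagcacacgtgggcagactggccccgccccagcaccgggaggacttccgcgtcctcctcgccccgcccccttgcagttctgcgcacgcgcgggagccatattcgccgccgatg
Psmb2: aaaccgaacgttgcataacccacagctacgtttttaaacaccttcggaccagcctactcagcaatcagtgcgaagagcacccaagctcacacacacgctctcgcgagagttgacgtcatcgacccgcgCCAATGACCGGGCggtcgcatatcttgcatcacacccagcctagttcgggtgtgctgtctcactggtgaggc
Psmb5: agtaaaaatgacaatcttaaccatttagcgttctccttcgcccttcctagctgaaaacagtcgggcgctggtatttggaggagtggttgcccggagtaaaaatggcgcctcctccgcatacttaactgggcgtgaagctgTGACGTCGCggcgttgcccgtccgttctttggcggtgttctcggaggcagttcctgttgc
Psmd9: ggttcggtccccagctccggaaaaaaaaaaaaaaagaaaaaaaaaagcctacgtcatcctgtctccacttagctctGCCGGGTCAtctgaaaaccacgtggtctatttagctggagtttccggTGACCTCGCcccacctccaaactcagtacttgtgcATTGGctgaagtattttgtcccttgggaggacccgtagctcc
In Psmb2 the CCAAT box and the antioxidant response core overlap by their shared T at position -68. The 3 genes with the highest ratios hold no antioxidant response core in these windows, and most members hold none (it was found in 15.4% of 39).

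Motif matches were counted in the 250 bases upstream of 39 members; Psma7 and Psmd6 had no entry in the promoter table. TGACNNNGC was in 6 of the 39 (15.4%), against 10.1% of all 33469 promoters and 13.3% of those of measured genes. Its 6 carriers were Psma3, Psmb2, Psmb5, Psmd1, Psmd9 and Psme4, and Psmd9 held it at 2 places. CCAAT was in 20 (51.3%), against 34% of all promoters and 36.6% of those of measured genes. CCGGAAG was in 11 (28.2%), against 7.27% and 16.9%. The non-subunits Psmc3ip and Psme3ip1 are among the carriers of CCAAT and of CCGGAAG, and enter the medians that follow. The median log2 ratio was 0.08 for members with the antioxidant response core and 0.08 for those without it. It was 0.08 with and 0.08 without CCAAT, and 0.17 with and 0.07 without CCGGAAG. A match is only a match of letters in this window, and these medians were not tested.

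**Figure D2:**
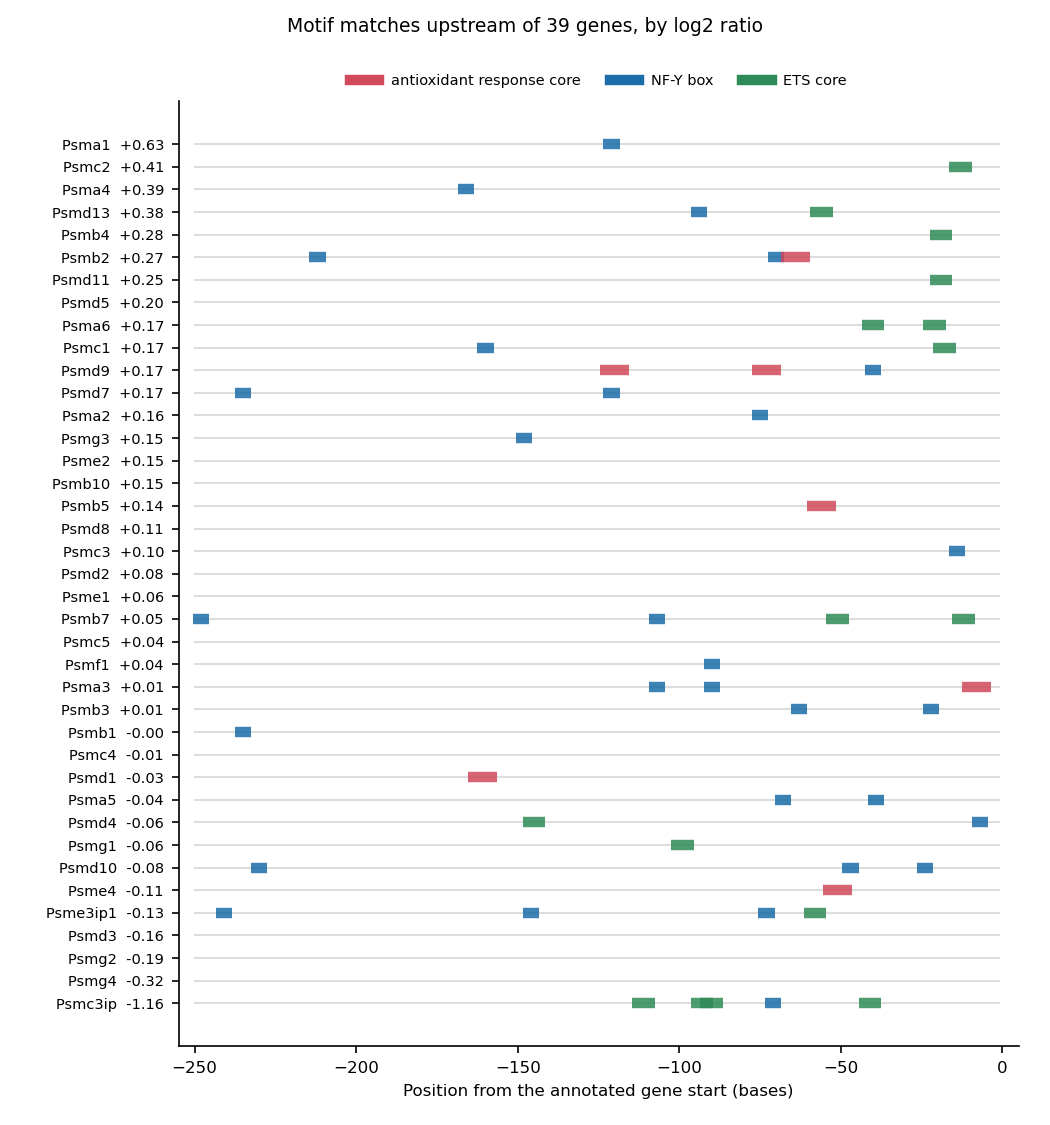
Positions of the 3 motifs in the 250 bases upstream of the annotated start (horizontal axis, bases) of 39 genes, ordered from the highest to the lowest centred log2 ratio, printed beside each symbol. Red marks the antioxidant response core, blue the NF-Y box and green the ETS core. Red marks occur in 6 of the 39 genes, from Psmb2 (0.27) down to Psme4 (-0.11), and the 5 genes at the top have none.

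The alpha ring of the core gates the entry to the proteolytic chamber, and its 7 subunit genes were all measured. Of these 6 were higher, with a median of 0.16, beside 50% of measured genes. Without centring 5 of 7 were higher, with a median of 0.04, beside 33.2% of measured genes. Psma1 had the largest positive ratio of the 41 genes. Its signal was 122.1 with the low-fat and 173.9 with the high-fat diet, a ratio of 0.63 or 1.54-fold, above 96.4% of measured genes. That was 2.84 times the robust SD of its bin, and the ratio was 0.51 to 0.63 over the 6 scalings. Psma4 was next in the ring, at 139.4 and 168.1, a ratio of 0.39.

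The other 5 alpha subunits lay between -0.04 and 0.17. Psma6 had signals of 847 and 880.5, with a ratio of 0.17, just over the robust SD of its bin (0.17) when counted from 0. The median of that bin was 0.05, however, and with loess the ratio of Psma6 was 0.12. Psma2, at 212.9 and 219.5, had a ratio of 0.16. Psma7, at 317.4 and 319.2, had a ratio of 0.12. Psma3 had a ratio of 0.01 from signals of 72.4 and 67.4, and its sign flipped without centring (-0.10). A brighter probe set shared by Psma3 and Psma3l, outside the rule, had 340.5 and 350.8 and a ratio of 0.16. Psma5 was the single lower alpha subunit, at 241 and 216, with a ratio of -0.04. The ring was thus spread from -0.04 to 0.63, and Psma1 and Psma4 stood apart from the rest of it in size.

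The beta ring carries the active sites, on the subunits encoded by Psmb5, Psmb6 and Psmb7. Of 7 measured beta genes 6 were higher, with a median of 0.14, beside 50% of measured genes. Without centring 4 of 7 were higher, with a median of 0.03, beside 33.2% of measured genes. Psmb5, the chymotrypsin-like subunit, had signals of 471.4 and 480, a ratio of 0.14. Psmb7, the trypsin-like subunit, had 334.5 and 319.2, a ratio of 0.05 that was -0.07 without centring. Psmb6, the caspase-like subunit, was read only by a probe set that also names Psmb6l1, with 155 and 169.2 and a ratio of 0.24. Psmb5 and Psmb7 thus lay within the robust SD of their bin, and the shared Psmb6 probe set was at 1.1 times it.

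The structural beta subunits were divided. Psmb4 had signals of 432.4 and 483.2, a ratio of 0.28 that was 1.62 times the robust SD. Psmb2 had 329.5 and 367.3, a ratio of 0.27 and 1.20 times the robust SD. Psmb1 stood at 579.5 and 532.9, and Psmb3 at 386.5 and 358.8, with ratios of -0.004 and 0.01. The sign of Psmb3 flipped without centring, to -0.11. Psmb2 and Psmb4 thus were above the robust SD of their bin, and Psmb1 and Psmb3 were at the level of the array as a whole.

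Psmb10 encodes the inducible beta subunit that replaces the product of Psmb7 in the immunoproteasome, the form that cells make under interferon. Its signals were 74.9 and 76.4, a ratio of 0.15. Psmb8, which replaces Psmb5, had 144.7 and 166.8 and a ratio of 0.32, 1.46 times the robust SD. Psmb9, which replaces Psmb6, had 53.8 and 75.9 and a ratio of 0.61, 2.08 times it. In each of the 3 pairs the inducible gene had the larger ratio (0.15 against 0.05, 0.32 against 0.14, and 0.61 against 0.24), but single arrays give no test of these gaps. Of 10 interferon-induced genes with a probe set, 7 were measured, among them Psmb8 and Psmb9, with ratios of 0.05 to 0.61. All 7 were higher by their brightest probe set, beside 50% of measured genes. With loess 6 were higher, beside 49.8%, and without centring 4, beside 33.2%. A second measured B2m probe set was at -0.01. Of those not measured, Gbp2 (17.8 and 11) and Cxcl10 (8.4 and 6.7) were lower and Tap2 (6.9 and 12.4) higher. The uncentred signals of the list summed to 4339.6 and 4191.6, of which 3348.8 and 3192.4 were from the brighter B2m probe set. Tapbp, the peptide-loading protein tapasin, was at 0.47, the transcription factor gene Irf1 at 0.33 and Cd74, the invariant chain, at 0.08.

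The 19S ATPases form a ring that docks on the alpha ring of the core. Of 5 measured ATPase genes 4 were higher, with a median of 0.10, beside 50% of measured genes. Without centring 2 of 5 were higher, beside 33.2%, and their median was -0.01, beside -0.12 over all measured genes. Psmc2 stood out, at 320 with the low-fat and 391.8 with the high-fat diet. Its ratio of 0.41, or 1.33-fold, was 1.80 times the robust SD and stayed between 0.29 and 0.41 over the 6 scalings. Psmc1, at 156.8 and 162.8, had a ratio of 0.17. Psmc3, at 172.1 and 170.7, had a ratio of 0.10.

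The remaining ATPases were near 0. Psmc5, at 151.1 and 143.4, had a ratio of 0.04, and Psmc4, at 251.3 and 230.5, had -0.01. The signs of Psmc3 and Psmc5 flipped without centring, to -0.01 and -0.08. Psmc2 thus was the ATPase farthest from 0, and Psmc1, at 0.17, was the next. Psmc6, the other ATPase of the ring, is not analysed here.

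Non-ATPase subunits of the 19S particle had a median of 0.11 over 9 measured genes, 6 higher and 3 lower. The share of all measured genes that were higher was 50%. Without centring 4 of the 9 were higher, beside 33.2%, and their median was -0.01, beside -0.12 over all measured genes. The lid, which holds the deubiquitinating subunit, contributed the higher values. Psmd13 had signals of 42.9 and 51.6, a ratio of 0.38. Psmd6 had 129 and 146.1, a ratio of 0.30. Psmd11 was read by 2 probe sets that gave like values, 125.3 and 137.9 with a ratio of 0.25, and 106.8 and 120 with a ratio of 0.28. Those 3 lid genes were at 1.15 to 1.34 times the robust SD of their bin, and kept their sign under the 6 scalings.

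The other lid genes had smaller or negative ratios. Psmd12 and the deubiquitinase gene Psmd14 are not analysed here. Psmd7, the partner of the deubiquitinase, had signals of 131 and 135.5 and a ratio of 0.17. Psmd8 had 242.6 and 241.3 and a ratio of 0.11, which was -0.01 without centring. Psmd3 was the lowest 19S gene, at 69.2 and 57.1, a ratio of -0.16. Over these 6 lid genes, a group formed after the values had been seen, the median was 0.21 and 5 were higher.

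The base scaffold genes and the ubiquitin receptor gene Psmd4 lay close to 0. Psmd2, a large scaffold of the base, had signals of 131.9 and 128.8, a ratio of 0.08. Psmd1, the other large scaffold, had 68.2 and 61.5, a ratio of -0.03, which was 0.002 with quantile normalization. Psmd4, a receptor for ubiquitin chains, had 148.7 and 131.7, a ratio of -0.06. None of these 3 was beyond the spread of probe sets of like signal. Adrm1, another ubiquitin receptor of the particle and no member by symbol, was at 31.6 and 41.9. Its ratio of 0.52 was 1.53 times the robust SD of its bin.

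**Figure D3:**
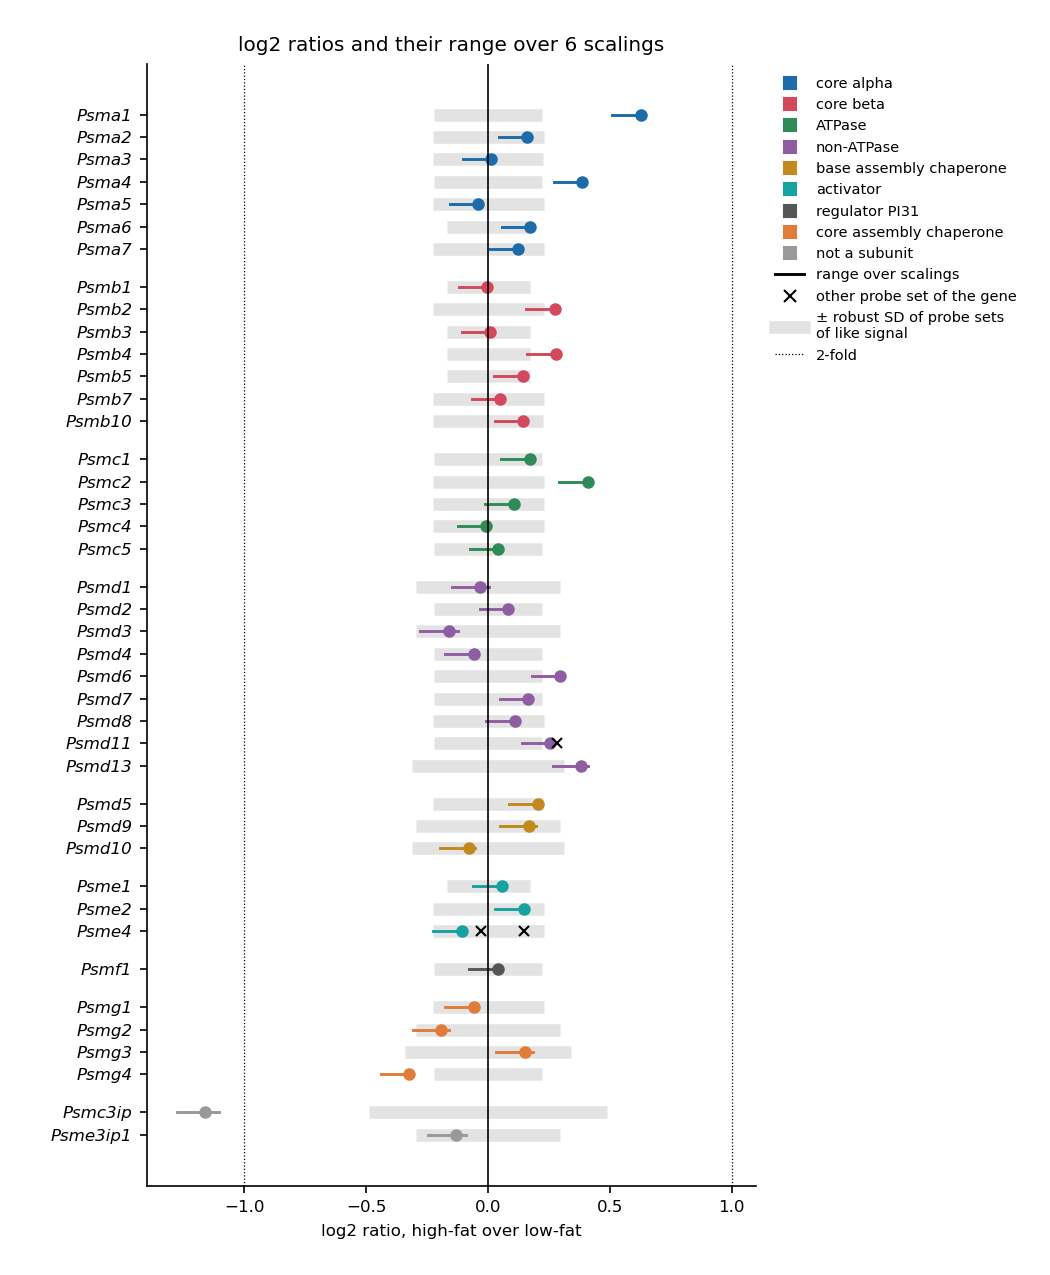
Centred log2 ratio (points) of each gene with its range over the 6 scalings (coloured lines), other probe sets of the same gene (crosses) and the robust SD of probe sets of like signal around 0 (grey bars). Dotted lines mark 2-fold. Psma1 (0.63), Psmc2 (0.41) and Psma4 (0.39) lie to the right of their grey bars over their whole range. Psmc3ip alone is drawn past 2-fold, from a high-fat signal under the floor.

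Chaperones that build the particle did not follow the subunits in a single direction. The 3 base chaperones had ratios of 0.20 for Psmd5 (77.7 and 82.5), 0.17 for Psmd9 (58.9 and 61) and -0.08 for Psmd10 (48.2 and 42.1), the last also known as gankyrin. Of the proteasome classes, core assembly genes had the lowest median, with 3 of 4 lower and a median of -0.12. Without centring it was -0.24, beside -0.12 over all measured genes. Psmg4 was the lowest proteasome gene of all, at 137.5 with the low-fat and 101.3 with the high-fat diet. Its ratio of -0.32, or 1.25-fold lower, lay at -1.47 robust SDs of its bin. Psmg3, whose product pairs with that of Psmg4, was at 37 and 37.9, a ratio of 0.15.

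The other pair of core chaperones is made of the products of Psmg1 and Psmg2. Psmg1 had signals of 204.5 and 181.1, a ratio of -0.06. Psmg2 had 58.3 and 47.1, a ratio of -0.19. Pomp, the chaperone that completes the beta ring and no member by symbol, went the other way, at 487.3 and 530.4 with a ratio of 0.24. The 4 Psmg signs were the same under the 6 scalings, of which only quantile normalization and loess could turn a lower gene higher.

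The activators bind the ends of the core in place of the 19S particle. Psme1 and Psme2 encode the PA28 alpha and beta subunits, which interferon induces. Psme1 had the signals 665 and 637.7, a ratio of 0.06 that was -0.06 without centring, and Psme2 had 202.5 and 206.8, a ratio of 0.15. Psme4, which encodes PA200, was read by 3 probe sets that disagreed in sign. The brightest gave 199.1 and 170.4 (-0.11), another 83.4 and 75.3 (-0.03), and the dimmest 44.2 and 45.2 (0.15). All 3 lay within the robust SD of their bin. In the counts Psme4 is lower, by its brightest probe set alone, and its 3 probe sets give no common direction. The class median was 0.06, with 2 of 3 higher, beside 50% of measured genes. Without centring it was -0.06, with 1 of 3 higher, beside 33.2% of measured genes.

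The inhibitor or regulator PI31, encoded by Psmf1, had signals of 112.7 and 106.9. Its ratio of 0.04 was -0.08 without centring and -0.02 on the hybridization controls. Psme3 was read only by 4 probe sets that also name Aoc3 and G6pc1, a neighbouring amine oxidase gene and the glucose-6-phosphatase gene. Of these, 2 had ratios of -0.28 and -0.37 and 2 had 0.51 and 0.49, and none can be assigned to Psme3.

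Both non-subunits were lower. Psmc3ip encodes a partner of meiotic recombination proteins that was named for its binding to an ATPase subunit. Its signals were 26.9 and 11.1, the second below the high-fat floor. It was at least 1.77-fold lower against that floor, with a measured ratio of -1.16. Psme3ip1, named for binding the Psme3 product, had signals of 63.6 and 53.6, a ratio of -0.13. Without these 2 genes the family had 28 of 39 higher and a median of 0.11.

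The sign of 31 of the 41 genes (75.6%) was the same under the 6 scalings, beside 80.6% of measured genes. Of these, 19 genes were higher throughout (46.3%) and 12 lower throughout (29.3%), beside 32.9% and 47.7% of measured genes. The signs are those of the brightest probe set, by which Psme4 is among the 12, while its dimmest was higher throughout. The other 10 changed sign with the scaling, 9 of them higher and 1 lower under the centring used here. Of the scalings that shift all ratios alike, this centring gives the highest ratios, so under the others only higher genes could change sign. The 20S core and the 19S particle had similar values: the core had 12 of 14 higher and a median of 0.14, and the 19S ATPases and non-ATPases together had 10 of 14 higher and a median of 0.11. Without centring these counts were 9 and 6 of 14. The share of all measured genes that were higher was 50% with centring and 33.2% without. Many subunit genes have processed copies in the rat genome, and probe sets may read RNA of more than a single copy. In the RefSeq table of GRCr8, 14 of the 41 genes had at least 1 copy named for them, up to 10 for Psmb3. Those 14 had a median of 0.05, with 10 higher, and the lowest of them was Psmg4 (-0.32), with 3 named copies. The 27 without a named copy had a median of 0.14, with 18 higher, and held both Psma1, Psmc2 and Psma4 at the top and Psmg2 (-0.19), Psmd3 (-0.16) and Psmc3ip at the bottom.

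**Figure D4:**
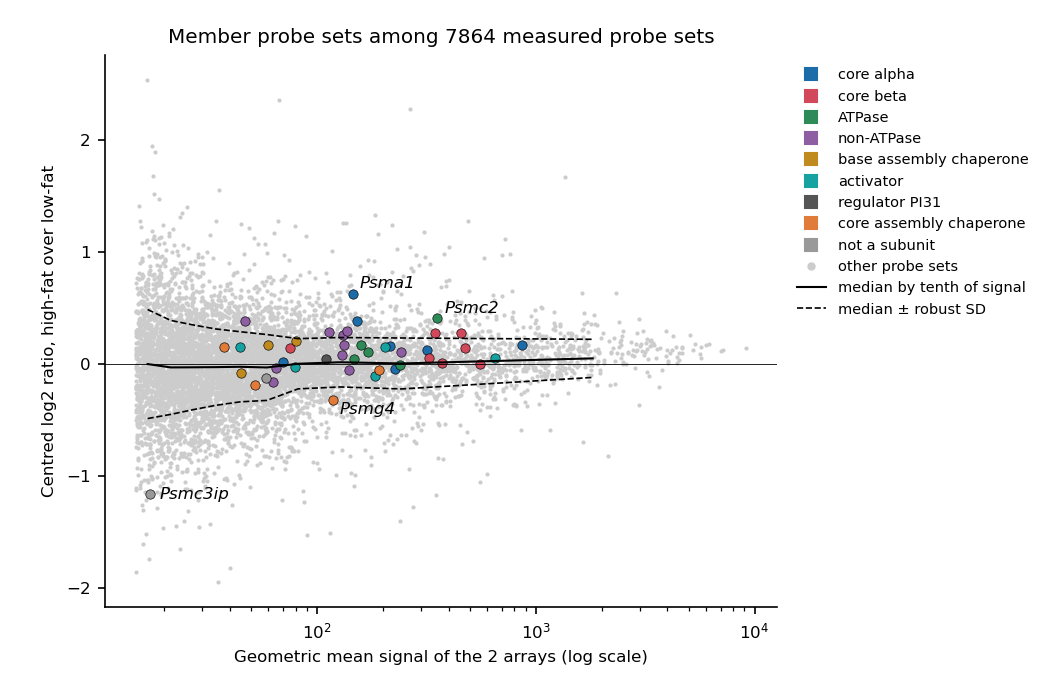
Centred log2 ratio (vertical) against the geometric mean signal of both arrays (horizontal, log axis) for the 7864 measured probe sets (grey) and the 44 member probe sets (coloured by class). Lines give the median and the median ± 1 robust SD by bin of signal. Member points lie mostly inside the dashed lines, with Psma1 and Psmc2 among those above and Psmg4 and Psmc3ip below.

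The genes that feed and regulate the proteasome were examined from a list of 33 partners and from the E2 enzymes, which load ubiquitin onto substrates. Of the partners 22 were measured, 11 higher and 11 lower, with a median of 0.05. Nfe2l2, the antioxidant response factor, had signals of 94.2 and 115.2, a ratio of 0.41. Nfe2l1, the factor that raises subunit genes when activity is short, had 45.9 and 49.7, a ratio of 0.23, and a second measured probe set gave 0.05. Ufd1, a cofactor of the segregase Vcp, was at 0.41 but at -0.02 on its second probe set. Txnl1, a thioredoxin-like protein of the 19S particle, was at 0.37 and at -0.14 on another. Ubqln2, a shuttle for ubiquitylated proteins, was lowest, at 83.3 and 49.4, a ratio of -0.64. The partners thus went both ways, and several of their probe sets disagreed within a gene.

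Of 23 measured E2 genes, 11 were higher and 12 lower, with a median of -0.01. Ube2e2 was lowest, at 54.4 and 33.5, a ratio of -0.58. Ube2d1 was highest, at 0.47, but its low-fat signal of 13.9 was under the floor. Ube2j1, an E2 of the endoplasmic reticulum, was at -0.39, Ube2s at -0.38, and Ube2g1 at 0.32 with -0.06 on its second probe set. Other large complexes served as a comparison. The chaperonin CCT, a folding machine of 8 subunit genes, had 6 of 8 higher and a median of 0.20. Cytosolic ribosomal protein genes had 17 of 42 higher and a median of -0.03. The proteasome median of 0.10 lay between these, and the differences between these groups were not tested.

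**Figure D5:**
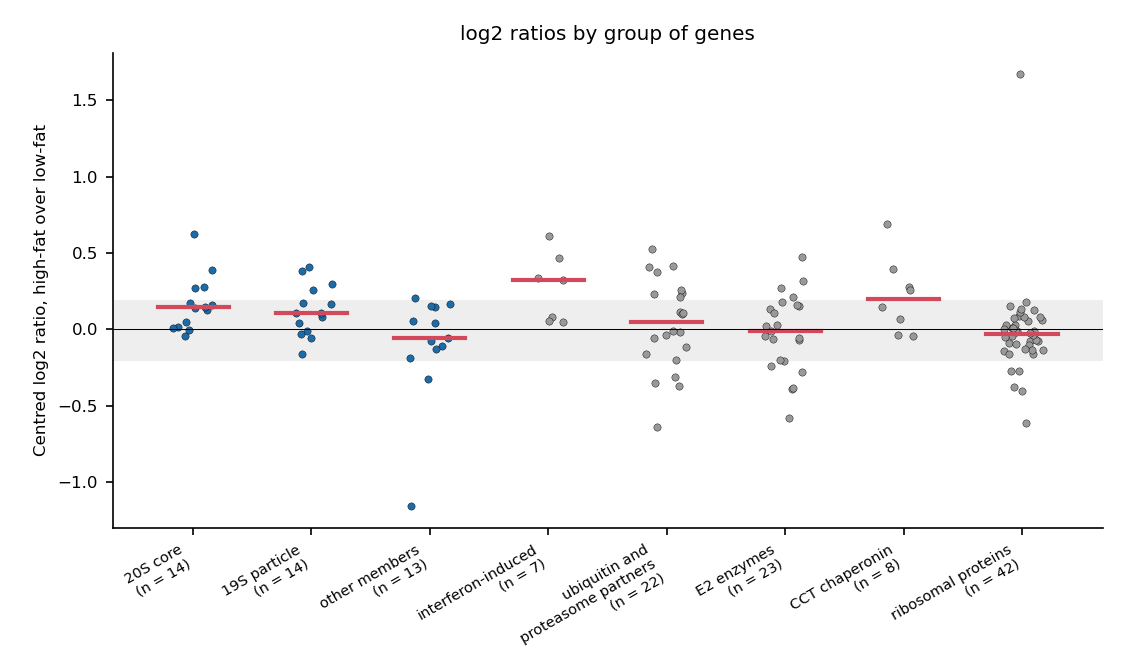
Centred log2 ratio of the measured genes of each group (points) with the group median (red bar), for members (blue) and other lists (grey). The grey band spans the quartiles of all measured genes, -0.20 to 0.18. The medians of the 20S core (0.14) and 19S particle (0.11) lie inside the band.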

How the data were processed

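Liver RNA of 1 low-fat and 1 high-fat sample was measured on arrays with Affymetrix-style probe sets. The deposited values are linear signal intensities, as read from the values themselves. How the authors corrected background, summarised probes and scaled arrays is not stated in the labels. Of 15923 probe sets, 57 controls were left out and 4 with a signal of 0 were removed before log2. Symbols came from the platform annotation: 12783 probe sets had 1 symbol, 312 several and 2771 none. No member symbol changed in the RefSeq table of GRCr8.

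Each array had its own median as floor. Ratios were centred on their median over the measured probe sets, a gene was represented by its brightest measured probe set, and a gene was called at 2-fold. A fold with 1 array under its floor is a bound against that floor. All 39 genes of the family and both non-subunits are named; from the partner, E2 and interferon lists, the 5 measured genes with the largest ratio in size and a fixed set with Pomp, Adrm1, Nfe2l1 and Nfe2l2 are, and none from the comparison complexes. The remainder of the fixed set is not analysed here. The members and lists were chosen with earlier results of these data known. The 12 alternatives were 5 other scalings, 3 other floors, a pseudocount of 50, 2 other ways to combine probe sets, and the removal of suffixed probe sets. The removal of the non-subunits and the raising of signals under the floor to the floor were added after the data had been seen. The centring and fold steps were tested on simulated data with changes larger in size than any member ratio. That does not test the signs or medians of small ratios. Promoters came from the RefSeq table, matched by gene identifier. The tools were pandas 2.3.3, statsmodels 0.14.6, scipy 1.17.1, numpy 2.4.6 and matplotlib 3.10.9 under Python 3.11.15.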

Additional observations from a re-analysis of the deposited data

How the results depend on the processing

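The number of genes past 2-fold by measured ratio was 1, Psmc3ip, and became 0 with signals under the floor raised to the floor (Psmc3ip at -0.83), with the floor at the 75th percentile (where Psmc3ip is not measured and 37 members are), with a pseudocount of 50 (ratio -0.27) and without the 2 non-subunits. The number of higher genes was 19 to 30 of 41 (24 of 37 with the floor at the 75th percentile), and the median log2 ratio was -0.01 to 0.13. Both were lowest without centring and reached their highest value with no floor. Class medians ranged from 0.04 to 0.19 for core alpha, 0.03 to 0.17 for core beta, -0.01 to 0.13 for ATPases, -0.01 to 0.14 for non-ATPases and -0.06 to 0.15 for activators. Psme4 went from -0.11 to 0.15 when its dimmest probe set was used. No paired analysis was possible because each diet has 1 array. Signal over the floor limits Psmc3ip and Psmg3 most, and the number of arrays limits every value.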
